A study of Mus musculus with 6 samples.

Results

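The mitochondrial ribosomal protein genes were taken as every row of the deposited gene count table whose symbol begins with Mrpl or Mrps followed by a digit. The rule found 76 genes among 23358 rows, 47 named for the large subunit (Mrpl) and 29 for the small subunit (Mrps). The cells were MC3T3-E1, pre-osteoblasts of mouse calvaria (C57BL/6 background) that grow as a line and can deposit mineralised matrix. At confluence they were exposed for 16 h to 1 µM NU7441, which blocks the kinase DNA-PK (DNA-dependent protein kinase), in 3 samples, or to DMSO, the solvent, in 3 samples, in αMEM with FBS. The same line served both groups. Triplicates from several experiments were pooled, according to the design text, which does not say what each sample number stands for. The p-values therefore measure the spread between these samples, which may be technical.

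Mitochondrial ribosomes translate the few proteins that mitochondrial DNA encodes, all of them subunits of the oxidative phosphorylation machinery in mammals. Their own proteins are encoded in the nucleus, made on cytosolic ribosomes and imported. About their RNA core they carry proteins with counterparts in bacterial ribosomes and others that are found only in mitochondria. Bone-forming cells use both glycolysis and respiration, and mitochondrial content and respiration are known to change as osteoblasts differentiate.

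Total gene counts lay between 52150994 and 55021692 in the NU7441 samples and between 47312968 and 71292628 in the DMSO samples. The difference was within their spread (two-sided exact permutation test, p = 0.7, n = 3 and 3, where 0.1 is the smallest p possible). Every count in the table is an even number. Runx2, the master regulator of the osteoblast lineage, had 176 CPM (counts per 1e6 counts of the scaled library) in NU7441 and 174 CPM in DMSO. Of 7 osteoblast lineage markers tested 2 rose (Col1a2 and Spp1) and 2 fell (Alpl and Ibsp), and their part in the results was not tested. Of 13 markers of other cell types in the table, 5 were at 0 in all samples (Ptprc, Hba-a1, Epcam, Myod1 and Acan), and the summed level of all 13 lay between 11.8 and 14.3 CPM in NU7441 and between 10.9 and 12.3 CPM in DMSO. Only 4 of the 13 had enough counts to be tested, and of these 1 rose and 0 fell (25% higher, against 14.1% of all genes tested). The highest count of any of the 13 in 1 sample was 600. Prkdc, the gene of the DNA-PK catalytic subunit, was slightly lower (log2 fold change -0.14; edgeR adjusted p of 0.016), a call that was lost without NU7441 replicate 1 and without DMSO replicate 2 (largest adjusted p 0.0611).

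Transcripts of the mitochondrial ribosome were modestly lower after NU7441. All 76 genes passed the filter on low counts, with between 336 and 3464 counts in any one sample. Of these, 25 fell and 3 rose at a Benjamini-Hochberg adjusted p of 0.05 in edgeR's quasi-likelihood test over 13784 genes. The share that fell was 32.9%, against 16.6% of all genes tested, and the share that rose was 3.95%, against 14.1% of all genes. In both directions together 36.8% were called, against 30.7% of all genes. That order did not hold in every setting. It turned with DESeq2 (26.3%, against 30.5% of all genes) and with upper-quartile scaling (28.9%, against 32%). It also turned without NU7441 replicate 2 (25%, against 26%) and without DMSO replicate 3 (22.4%, against 24.9%). The median log2 fold change was -0.11 over the mitochondrial ribosomal genes and 0.01 over all genes, and 64 of the 76 values were below 0. With upper-quartile scaling that median was -0.08 and with library size alone -0.12, so that its sign held under each scaling tried. The number called lower was 18 with upper-quartile scaling (23.7%, against 13.9% of all genes) and 19 with DESeq2 (25%, against 16.5%). Without DMSO replicate 3, the deepest library, 16 genes were called lower (21.1%, against 13.5% of all genes) and 1 higher. Leaving out NU7441 replicate 2, or using DESeq2, also left 1 higher call.

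The changes were small. Single values ran from a log2 fold change of -0.42 to 0.20, and 3 genes were more than 20% lower. Among the 25 that fell, the median change was -11.8%. The groups did not overlap for 43 of the 76 genes, a share to be read beside the 42.8% of all genes tested. Of these 43, 38 were lower and 5 higher. Among all genes tested, 22.2% did not overlap and were lower, and 20.6% did not overlap and were higher. Summed over all 76 genes the level was 1704, 1672 and 1690 CPM in the NU7441 samples, against 1827, 1783 and 1807 CPM in the DMSO samples. Every NU7441 sample lay below every DMSO sample. In bulk RNA, fewer cells of a kind and less RNA per cell cannot be told apart. Markers of dividing cells moved with this result. All 7 fell (Mki67, Top2a, Ccnb1, Cdk1, Mcm2, Mcm5 and Pcna), with summed levels between 468 and 523 CPM in NU7441 and between 1103 and 1205 CPM in DMSO, and their part in the result was not tested.

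**Figure D1:**
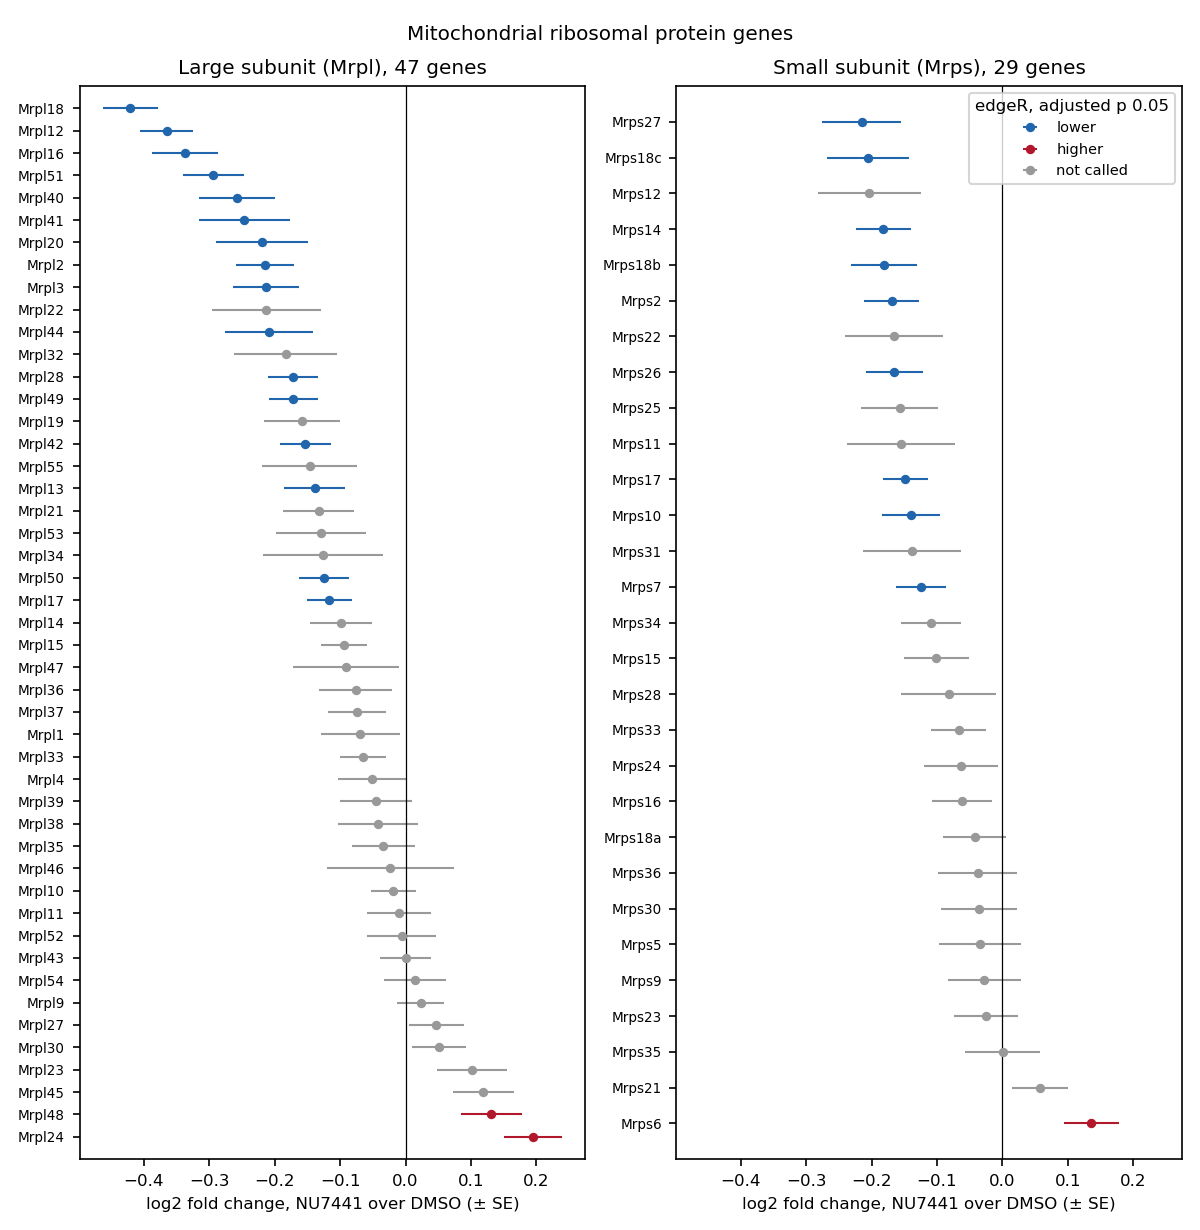
Log2 fold change of NU7441 over DMSO (x axis) for each of the 47 Mrpl genes (left) and 29 Mrps genes (right), with bars of 1 SE from edgeR and colours for genes called lower, called higher or not called. Most points lie left of 0, with Mrpl18 at -0.42 the lowest and Mrpl24 at 0.20 the highest.

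The largest falls were in proteins of the large subunit. Mrpl18, a protein of the central protuberance that has a bacterial counterpart (chr17:12911355-12916091, mm10), had 24.3, 26.1 and 25.8 CPM in the NU7441 samples, against 33.4, 35.4 and 33.4 CPM in the DMSO samples. The groups were well apart, and the level was 25.3% lower (log2 fold change -0.42 ± 0.04, SE; edgeR, adjusted p = 2.8e-06, n = 3 per group). Mrpl12, the stalk protein that meets the translation factors (chr11:120484669-120488754), had 30.0, 32.6 and 32.5 CPM in NU7441, against 40.6, 40.4 and 41.5 CPM in DMSO. It averaged 31.7 ± 1.503 CPM in NU7441 and 40.8 ± 0.626 CPM in DMSO (SD, n = 3 each), and its log2 fold change was -0.37 ± 0.04 (SE), with an edgeR adjusted p of 7.1e-06. Mrpl10, the protein that anchors the stalk, had 40.8, 41.5 and 41.4 CPM in NU7441, against 41.8, 40.7 and 42.7 CPM in DMSO. Its groups overlapped (log2 fold change -0.02 ± 0.03; edgeR, adjusted p = 0.73). Whether the 2 stalk genes differ from each other was not tested.

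Mrpl16, which lies near the tRNA sites of the large subunit (chr19:11770415-11774946), had 18.1, 18.7 and 17.1 CPM in NU7441, against 22.2, 22.7 and 23.1 CPM in DMSO. It was 20.8% lower (log2 fold change -0.34 ± 0.05; edgeR, adjusted p = 0.00012). Mrpl51, a protein found only in mitochondrial ribosomes (chr6:125192200-125194392), had 33.3, 30.4 and 32.1 CPM in NU7441, against 41.1, 36.8 and 39.5 CPM in DMSO. The DMSO samples spread more widely than those of Mrpl12, but the groups stayed apart (log2 fold change -0.29 ± 0.05; edgeR, adjusted p = 0.00022). The calls of Mrpl18, Mrpl12, Mrpl16 and Mrpl51 held under all 14 alternative settings.

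The 300-base promoter windows of 4 of the genes that fell are shown as examples, 2 with the GABPA site, 1 with the NRF1 site and 1 with no match. Each runs from 250 bases before to 50 bases after the RefSeq start on GRCm38.p6, 5′ to 3′ on the gene's strand. Capitals mark a match to CCGGAAG, the core of the GABPA site, in Mrpl18 (chr17:12916042-12916341, minus strand, bases 11 to 17) and Mrpl51 (chr6:125191950-125192249, plus strand, bases 161 to 167). In Mrpl12 they mark a match on the other strand to the NRF1 site, GCGCA followed by any base and GCGC (chr11:120484387-120484686, plus strand, bases 170 to 179). Mrpl49 (chr19:6057706-6058005, minus strand) held no match to the motifs searched. At its base 118 lies the start of Fau, which is read in the other direction.
Mrpl18: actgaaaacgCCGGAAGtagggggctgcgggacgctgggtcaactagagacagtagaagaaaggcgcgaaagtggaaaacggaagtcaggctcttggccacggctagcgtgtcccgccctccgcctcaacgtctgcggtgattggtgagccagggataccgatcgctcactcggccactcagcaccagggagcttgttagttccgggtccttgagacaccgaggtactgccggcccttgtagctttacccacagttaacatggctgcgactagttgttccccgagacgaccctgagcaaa
Mrpl12: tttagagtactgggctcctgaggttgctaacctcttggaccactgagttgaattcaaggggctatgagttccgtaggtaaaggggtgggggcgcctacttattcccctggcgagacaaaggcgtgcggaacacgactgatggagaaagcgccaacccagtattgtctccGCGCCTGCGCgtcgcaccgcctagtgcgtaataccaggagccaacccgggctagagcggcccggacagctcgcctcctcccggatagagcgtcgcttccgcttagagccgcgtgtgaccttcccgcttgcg
Mrpl51: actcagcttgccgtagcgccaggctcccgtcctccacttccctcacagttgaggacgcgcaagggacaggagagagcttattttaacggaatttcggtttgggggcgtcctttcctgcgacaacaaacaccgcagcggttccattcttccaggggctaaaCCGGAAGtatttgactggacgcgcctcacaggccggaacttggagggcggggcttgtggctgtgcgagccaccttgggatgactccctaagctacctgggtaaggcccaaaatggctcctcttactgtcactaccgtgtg
Mrpl49: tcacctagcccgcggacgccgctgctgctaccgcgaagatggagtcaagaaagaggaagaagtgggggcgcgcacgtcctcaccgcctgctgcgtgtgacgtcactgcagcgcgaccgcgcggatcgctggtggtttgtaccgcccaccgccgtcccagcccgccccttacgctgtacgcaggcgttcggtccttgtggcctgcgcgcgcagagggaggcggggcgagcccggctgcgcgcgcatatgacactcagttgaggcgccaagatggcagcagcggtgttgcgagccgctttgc

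The other members with the lowest adjusted p among those that fell lie in both subunits. Mrpl40, a mitochondria-specific protein of the central protuberance (chr16:18872018-18876637), had 14.4, 14.9 and 13.9 CPM in NU7441, against 18.1, 16.5 and 17.1 CPM in DMSO (log2 fold change -0.26 ± 0.06; edgeR, adjusted p = 0.0035). Mrpl2, an rRNA-binding core protein of the peptidyl transferase region (chr17:46646248-46650132), had 25.3, 23.4 and 24.9 CPM in NU7441, against 28.4, 27.4 and 29.5 CPM in DMSO (-0.22 ± 0.04; edgeR, adjusted p = 0.00195). Both genes were lower in each NU7441 sample than in any DMSO sample. Mrpl28 (chr17:26123503-26126613), which has a bacterial counterpart, had 43.2, 40.4 and 42.3 CPM in NU7441, against 47.9, 45.7 and 48.3 CPM in DMSO. Mrpl49, another protein without a bacterial counterpart (chr19:6053630-6057751), had 31.58, 32.01 and 31.83 CPM in NU7441, against 36.9, 34.5 and 36.0 CPM in DMSO. For both genes the log2 fold change was -0.17 ± 0.04, with an edgeR adjusted p of 0.0030 for Mrpl28 and 0.0029 for Mrpl49.

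In the small subunit the first 2 by adjusted p were Mrps17 and Mrps14, which both have bacterial counterparts. Mrps17, an rRNA-binding protein (chr5:129715528-129718691), had 39.5, 38.1 and 39.5 CPM in NU7441, against 43.6, 42.7 and 43.5 CPM in DMSO (log2 fold change -0.15 ± 0.03; edgeR, adjusted p = 0.0040). Mrps14, a protein of the head of the subunit (chr1:160195260-160201186), had 27.5, 25.1 and 25.7 CPM in NU7441, against 29.5, 29.6 and 29.6 CPM in DMSO (-0.18 ± 0.04; edgeR, adjusted p = 0.0044). The DMSO samples of Mrps14 nearly coincided, and the NU7441 samples spread over a wider range below them. The calls of Mrpl40, Mrpl2, Mrpl28, Mrpl49, Mrps17 and Mrps14, and also of Mrpl3, Mrpl42 and Mrps2, held under all 14 alternatives. Mrpl3, an rRNA-binding core protein, had 28.2, 24.4 and 25.2 CPM in NU7441, against 30.9, 30.1 and 29.3 CPM in DMSO (-0.21 ± 0.05; edgeR, adjusted p = 0.0050).

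Another 12 genes that fell were nearer the threshold, with log2 fold changes between -0.25 and -0.12. They are Mrpl13, Mrpl17, Mrpl20, Mrpl41, Mrpl44, Mrpl50, Mrps7, Mrps10, Mrps18b, Mrps18c, Mrps26 and Mrps27. Each lost its call in at least 1 of the 14 alternatives, and the largest adjusted p among them was 0.169 (Mrpl13). Upper-quartile scaling lost the calls of Mrpl13, Mrpl17, Mrpl20, Mrpl44, Mrpl50, Mrps7 and Mrps10. DESeq2 lost those of Mrpl13, Mrpl17, Mrpl44, Mrpl50, Mrps7 and Mrps10, and having no filter on low counts lost that of Mrps7. Without NU7441 replicate 1, the calls of Mrpl20, Mrpl41, Mrpl44, Mrpl50 and Mrps18b were lost. Without NU7441 replicate 2 it was those of Mrpl13, Mrpl20, Mrpl44, Mrps7, Mrps10, Mrps26 and Mrps27, and without NU7441 replicate 3 those of Mrpl13, Mrpl17, Mrpl41, Mrpl50, Mrps7, Mrps10 and Mrps18c. Leaving out DMSO replicate 1 lost Mrpl13, Mrpl20, Mrps7 and Mrps18c, and leaving out DMSO replicate 2 lost Mrpl20, Mrpl41, Mrpl44 and Mrpl50. Leaving out DMSO replicate 3 lost Mrpl13, Mrpl17, Mrpl41, Mrpl44, Mrpl50, Mrps7, Mrps10, Mrps18b, Mrps18c and Mrps27. Mrpl44, a protein with an RNase III-like fold, had 10.46, 10.99 and 11.80 CPM in NU7441, against 12.2, 13.0 and 13.2 CPM in DMSO (log2 fold change -0.21 ± 0.07; edgeR, adjusted p = 0.030, and 0.121 at most over the alternatives). Mrps27, a pentatricopeptide repeat protein of the small subunit, differed by -0.22 ± 0.06 (edgeR, adjusted p = 0.014).

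**Figure D2:**
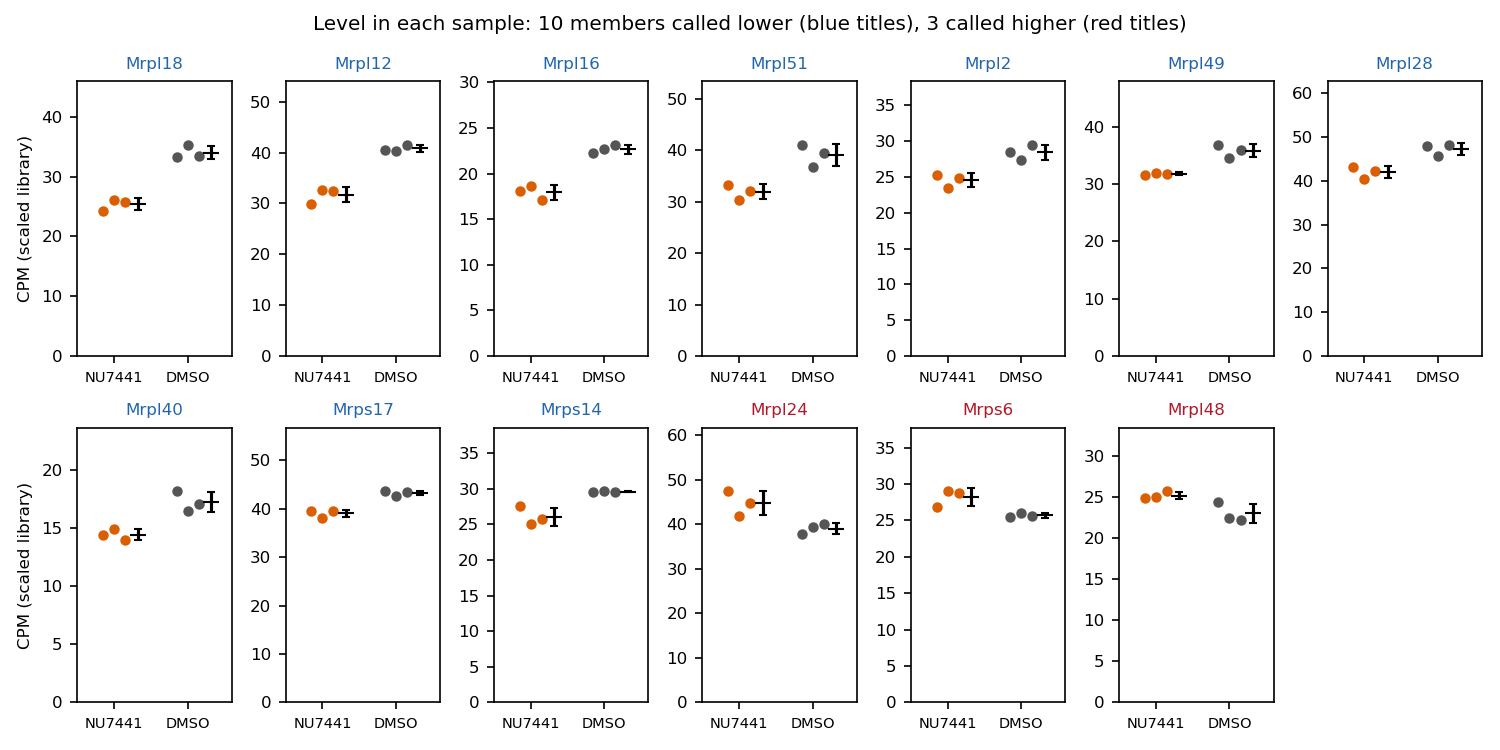
CPM on the scaled library (y axis, starting at 0) in each NU7441 and DMSO sample, with the mean and SD beside the points (n = 3 per group), for the 10 genes with the lowest adjusted p among those that fell and the 3 that rose. The groups stand apart in every panel, most widely for Mrpl18 (25.4 CPM in NU7441, 34.0 CPM in DMSO).

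Against this trend 3 genes rose. Mrpl24, a core protein at the polypeptide exit tunnel (chr3:87919544-87923433), had 47.4, 41.9 and 44.8 CPM in NU7441, against 37.7, 39.3 and 40.0 CPM in DMSO. It averaged 44.7 ± 2.75 CPM in NU7441 and 39.0 ± 1.18 CPM in DMSO (SD, n = 3 each), and was 14.5% higher (log2 fold change 0.20 ± 0.04; edgeR, adjusted p = 0.0038). Its call held under all 14 alternatives. Mrps6, a small-subunit protein with a bacterial counterpart (chr16:92058336-92112227), had 26.9, 29.0 and 28.8 CPM in NU7441, against 25.4, 26.0 and 25.6 CPM in DMSO (0.14 ± 0.04; edgeR, adjusted p = 0.023). Mrpl48, a mitochondria-specific protein of the central protuberance (chr7:100549117-100607996), had 24.86, 24.99 and 25.70 CPM in NU7441, against 24.4, 22.5 and 22.2 CPM in DMSO (0.13 ± 0.05; edgeR, adjusted p = 0.045). The highest DMSO sample of Mrpl48 came close to the NU7441 samples. The Mrps6 call was lost without NU7441 replicate 2, NU7441 replicate 3, DMSO replicate 1 or DMSO replicate 3, and with DESeq2 (adjusted p up to 0.112). The Mrpl48 call was lost without any 1 sample other than DMSO replicate 1, with DESeq2, with library size alone and with no filter on low counts (adjusted p up to 0.183).

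All 3 genes that rose share exon bases in GENCODE M21 with another gene of the table. The sources used here do not give the strand setting of the counting, and reads of overlapping genes cannot be told apart. Mrpl24 shares 594 bases, 26.3% of its merged exons, with Rrnad1 on the opposite strand, which differed by a log2 fold change of 0.14 and was not called. Mrps6 shares 159 bases on its own strand with Slc5a3, which encodes the sodium/myo-inositol cotransporter. Slc5a3 had 49.4, 51.2 and 47.5 CPM in NU7441, against 37.4, 38.1 and 37.0 CPM in DMSO (log2 fold change 0.40; edgeR, adjusted p = 1.3e-06). It rose by more than Mrps6, and the part of shared reads in the Mrps6 value was not tested. Mrpl48 shares 708 bases on the opposite strand with Rab6a, which differed by 0.03 and was not called. Among the 25 genes that fell, 8 share exon bases with another gene of the table. Mrpl18 shares 141 of its GENCODE M21 bases with Tcp1, while their deposited starts point away from each other, 374 bases apart.

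Mrps18a, Mrps18b and Mrps18c are paralogs of bacterial S18, and structures of the mammalian mitoribosome place the product of Mrps18a in the large subunit. Mrps18a had 20.6, 20.1 and 20.5 CPM in NU7441, against 21.4, 21.5 and 20.1 CPM in DMSO (log2 fold change -0.04 ± 0.05; edgeR, adjusted p = 0.56). Mrps18b had 24.7, 28.5 and 27.5 CPM in NU7441, against 30.6, 29.6 and 31.3 CPM in DMSO (-0.18 ± 0.05; edgeR, adjusted p = 0.013, and up to 0.0637 without NU7441 replicate 1 or DMSO replicate 3). The Mrps18a groups overlapped and those of Mrps18b did not. Mrps18c had 15.4, 15.4 and 14.6 CPM in NU7441, against 18.9, 16.2 and 17.3 CPM in DMSO (-0.21 ± 0.06; edgeR, adjusted p = 0.021, and up to 0.109 without NU7441 replicate 3, DMSO replicate 1 or DMSO replicate 3). The differences among the 3 paralogs were not tested. Mrps30, which structures also place in the large subunit, had 15.6, 15.5 and 16.2 CPM in NU7441, against 16.8, 15.1 and 16.5 CPM in DMSO. Mrps36, which encodes a subunit of the 2-oxoglutarate dehydrogenase complex, had 11.7, 11.8 and 11.7 CPM in NU7441, against 11.98, 12.13 and 11.93 CPM in DMSO. Mrps30 and Mrps36 each changed by -0.04 ± 0.06 on the log2 scale, with an edgeR adjusted p of 0.69, although the Mrps36 groups did not overlap.

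In all, 48 genes were not called, 39 of them with a value below 0 and 9 above, over a range of -0.21 to 0.12. In 15 of the 48 (31.2%) the groups did not overlap, against 18.7% of all tested genes that were not called. Mrps12, a protein of the decoding centre, had 9.85, 9.78 and 9.77 CPM in NU7441, against 10.0, 11.5 and 12.2 CPM in DMSO. The NU7441 samples nearly coincided below the DMSO samples, which were spread (log2 fold change -0.20 ± 0.08; edgeR, adjusted p = 0.064). Mrpl45, which ties the tunnel exit to the inner membrane, had 26.1, 25.6 and 23.9 CPM in NU7441, against 24.0, 22.8 and 22.8 CPM in DMSO. The lowest NU7441 sample lay just under the highest DMSO sample (0.12 ± 0.05; edgeR, adjusted p = 0.069). A p that misses the threshold does not show that the level was equal.

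Levels can be compared between genes per length, on the deposited RPKM scale. The median gene stood at 13.5 RPKM in NU7441 and 15.1 RPKM in DMSO. The highest was Mrpl33, a small rRNA-associated protein of the large subunit, with 64.7, 62.8 and 60.3 RPKM in NU7441, against 66.3, 65.5 and 68.7 RPKM in DMSO. Its groups did not overlap, but it was not called on the counts (log2 fold change -0.06; edgeR, adjusted p = 0.19). Next came Mrpl30, which has a bacterial counterpart, with 44.7, 43.6 and 44.0 RPKM in NU7441, against 46.0, 40.7 and 43.6 RPKM in DMSO, and Mrps21, a small-subunit protein, with 43.0, 43.9 and 44.3 RPKM in NU7441, against 43.2, 42.4 and 43.1 RPKM in DMSO. Mrpl30 and Mrps21 did not differ from each other beyond their spread, and neither was called between the groups (edgeR, adjusted p = 0.39 for Mrpl30 and 0.34 for Mrps21). The lowest was Mrps25, at 2.12 ± 0.115 RPKM in NU7441 and 2.41 ± 0.0991 RPKM in DMSO (SD, n = 3 each). The deposited lengths behind these values were a median of 0.58 times the merged exons of GENCODE M21 and ranged from 0.064 to 2.73 times them, so the order depends on the gene models used.

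Counts and medians of the large and the small subunit lay close together, and no test was made between them. Of 47 Mrpl genes 16 fell (34%) and 2 rose (4.26%), with a median log2 fold change of -0.10. Of 29 Mrps genes 9 fell (31%) and 1 rose (3.45%), with a median of -0.11. The shares over all genes tested were 16.6% lower and 14.1% higher. Without DMSO replicate 3 the small-subunit genes called lower numbered 4 of 29, where 13.5% of all genes tested fell. Without NU7441 replicate 2 they numbered 5 of 29, where 13.7% of all genes fell. In both fits 0 were called higher, and the share of small-subunit genes that fell lay near that of all genes. Summed levels of the large subunit were 1116, 1091 and 1097 CPM in NU7441, against 1191, 1164 and 1180 CPM in DMSO. Those of the small subunit were 588, 581 and 593 CPM in NU7441, against 635, 620 and 627 CPM in DMSO. Both sums were lower in every NU7441 sample than in any DMSO sample. The ratio of the large to the small sum was 1.898, 1.877 and 1.849 in NU7441, against 1.875, 1.879 and 1.881 in DMSO, and the groups overlapped. Moving Mrps30 and Mrps18a to the large subunit and leaving out Mrps36 gave 16 of 49 large-subunit and 9 of 26 small-subunit genes lower.

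A split by evolutionary origin was described in the same way. Of 47 genes whose proteins have a bacterial counterpart 16 fell (34%) and 2 rose (4.26%), with a median of -0.10. Of 28 mitochondria-specific genes 9 fell (32.1%) and 1 rose (3.57%), with a median of -0.12, and 5 of them fell when DMSO replicate 3 was left out. Over all genes tested the shares were 16.6% lower and 14.1% higher, and 13.5% were lower without DMSO replicate 3. The origin of each protein was assigned from textbook knowledge of the mitoribosome, and Mrps36 was put in neither class. Of 7 subunits with symbols outside the rule (Dap3, Ptcd3, Chchd1, Aurkaip1, Gadd45gip1, Ict1 and Mrp63), 1 fell (14.3%, against 16.6% of all genes tested), and their median log2 fold change was 0.01. That gene, Ptcd3, a pentatricopeptide repeat protein of the small subunit, had 51.1 ± 2.25 CPM in NU7441 and 58.6 ± 2.10 CPM in DMSO (SD, n = 3 each; log2 fold change -0.20 ± 0.04; edgeR, adjusted p = 0.0018).

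Many promoters of these genes hold letters that match sites of factors known to drive nuclear genes for mitochondria. RefSeq gave windows for 67 of the 76 genes, 73 windows in all, which were searched on both strands for 4 motifs. Matches of different motifs shared bases in 0 of these windows. Some genes have more than 1 window, so matches were counted by gene, over 27025 genes with a window in all. These include genes with too few counts to test or with no row, whereas all 76 were tested, so the shares below cover unlike sets. CCGGAAG, the site of the Ets-family factor GABPA, was in 24 of the 67 genes (35.8%, against 9.93% of all genes with a window), as in Mrpl18 and Mrpl51 above. The site of NRF1 (GCGCA, any base, GCGC) was in 12 (17.9%, against 5.19%), as in Mrpl12. The site of YY1 (AA, any base, then ATGG and CGGC without a gap) was in 7 (10.4%, against 1.17%). CACGTG, the E-box bound by MYC, was in 5 (7.46%, against 8.09%), near the share of all genes. At least 1 of the 4 was in 57.5% of the windows, against 18.9% of all 32851 windows. Among the 24 genes that fell and had a window, 8 held the GABPA site, 4 the NRF1 site, 1 the YY1 site and 3 the E-box. Among the 40 genes not called the numbers were 15, 8, 6 and 2. A match describes the letters only, and factor binding was not measured.

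Transcripts of several of these factors were themselves lower. In a list of 10 transcriptional regulators of mitochondrial genes 5 fell (50%, against 16.6% of all genes tested) and 0 rose. Pprc1, a coactivator of the PGC-1 family, had 74.2 ± 3.63 CPM in NU7441 and 94.7 ± 3.46 CPM in DMSO (SD, n = 3 each; log2 fold change -0.35 ± 0.04; edgeR, adjusted p = 1.2e-05). Myc had 61.5 ± 4.34 CPM in NU7441 and 76.4 ± 5.75 CPM in DMSO (-0.32 ± 0.06; edgeR, adjusted p = 0.00054). Nrf1 (-0.20 ± 0.04), Gabpb1, the partner subunit of GABPA (-0.19 ± 0.04), and Yy1 (-0.14 ± 0.03) also fell, and these 5 calls held in all 14 alternatives. Gabpa had 64.6 ± 3.03 CPM in NU7441 and 64.0 ± 2.55 CPM in DMSO and was not called (edgeR, adjusted p = 0.84). Ppargc1a, the coactivator PGC-1α, had 30, 24 and 146 counts in NU7441, against 32, 26 and 26 counts in DMSO. Its high value came from NU7441 replicate 3 alone, and it was not called (log2 fold change 1.38; edgeR, adjusted p = 0.078). Without that sample the log2 fold change was 0.05, and without NU7441 replicate 1 or 2 the gene was called higher.

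Many of these genes lie head to head with another gene. On the starts given in the table, with strands from GENCODE M21, 24 of the 76 (31.6%) had a protein-coding start on the opposite strand within 1000 bases, against 8.89% of 20220 protein-coding genes. Those 20220 include genes with too few counts to test, whereas all 76 were tested, so the shares cover unlike sets. No share over tested genes alone was taken. The neighbours did not move as one with the mitochondrial ribosomal genes beside them. Of the 11 such members that fell, 5 had a neighbour that fell, 1 a neighbour that rose and 5 a neighbour that was not called. These numbers are to be read beside all genes tested, of which 16.6% fell and 14.1% rose. Of the 12 that were not called, 3 had a neighbour that fell, 1 a neighbour that rose and 8 a neighbour that was not called. The one that rose had a neighbour that was not called. Mrpl46 and Mrps11 are each other's neighbour, so their pair counts under both.

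Opposite directions were seen at Mrpl49 and Fau, whose starts lie 137 bases apart. Fau encodes a cytosolic ribosomal protein as a fusion with a ubiquitin-like protein, and had 499.8, 473.8 and 486.0 CPM in NU7441, against 431.3, 424.8 and 432.1 CPM in DMSO. It rose while Mrpl49 fell (Fau log2 fold change 0.18 ± 0.03; edgeR, adjusted p = 0.00026), and both calls held in all 14 alternatives. At Mrpl51 the neighbour moved the same way but by far more. Ncapd2, a condensin subunit of dividing cells whose start lies 614 bases away, had 67.4, 66.3 and 61.3 CPM in NU7441, against 161.3, 146.3 and 145.4 CPM in DMSO (log2 fold change -1.22 ± 0.05; edgeR, adjusted p = 1.7e-10). Eme1, a subunit of a DNA repair nuclease that starts 37 bases from Mrpl27, fell (-1.20 ± 0.11; edgeR, adjusted p = 1.6e-06), while Mrpl27 differed by 0.05 ± 0.04 and was not called. Mtbp, next to Mrpl13, differed by -0.56 and Helq, a DNA helicase next to Mrps18c, by -0.27 (edgeR, adjusted p = 6.0e-07 for Mtbp and 0.0054 for Helq). In GENCODE M21 Mrpl13 and Mtbp share 330 exon bases on opposite strands, and Mrpl27 and Eme1 share 75. On the deposited starts the pairs point away from each other, 96 bases apart for Mrpl13 and Mtbp and 37 for Mrpl27 and Eme1. The part of shared reads in the values of these pairs was not tested. Tcp1, a chaperonin subunit whose start lies 374 bases from that of Mrpl18, fell (-0.12; edgeR, adjusted p = 0.0092), a call lost without NU7441 replicate 2 (adjusted p 0.0534).

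**Figure D3:**
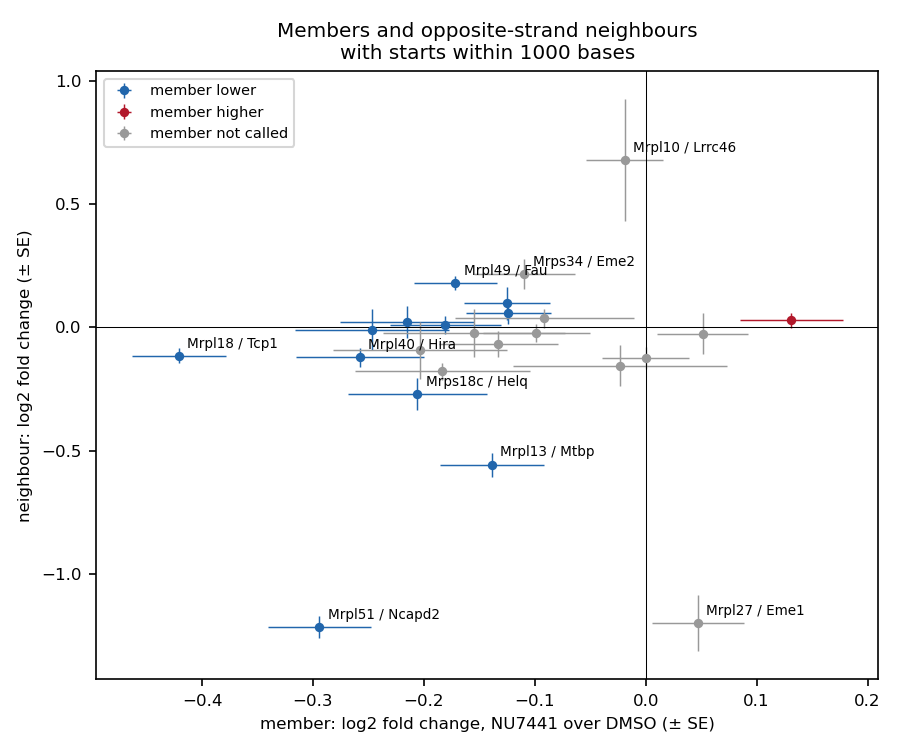
Log2 fold change of NU7441 over DMSO for each mitochondrial ribosomal gene (x axis) and for its opposite-strand neighbour with a start within 1000 bases (y axis), 24 pairs, with bars of 1 SE. Points of genes that fell lie on both sides of 0 on the y axis, with Mrpl49 and Fau above it and Mrpl51 and Ncapd2 at -1.22.

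Genes that build and serve the mitochondrial ribosome were described from 5 further lists. Of 24 assembly and rRNA modification genes 3 fell (12.5%) and 2 rose (8.33%), both shares below those of all genes tested (16.6% lower and 14.1% higher). Mterfd2, the older symbol of Mterf4, had 127 ± 5.63 CPM in NU7441 and 105 ± 4.18 CPM in DMSO (SD, n = 3 each; log2 fold change 0.28 ± 0.04; edgeR, adjusted p = 6.0e-05). Its partner Nsun4, with which it forms a complex needed for assembly of the mitochondrial ribosome, also rose (0.19 ± 0.06; edgeR, adjusted p = 0.015), a call lost without NU7441 replicate 2 or DMSO replicate 1 (adjusted p up to 0.0659). Rnmtl1, the older symbol of the rRNA methyltransferase Mrm3 (-0.38 ± 0.09), and the pseudouridine synthase Trub2 (-0.25 ± 0.05) fell in all 14 alternatives, and Fastkd2 was the third (-0.15 ± 0.05). The Fastkd2 call was lost without 1 of several samples, so that 2 of the list fell without NU7441 replicate 1, 2 or 3 or DMSO replicate 2.

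Of 13 mitochondrial translation factors 4 fell (30.8%, against 16.6% of all genes tested) and 0 rose, the same numbers in each of the 14 alternatives. They were the elongation factors Tsfm (-0.41 ± 0.07) and Gfm1 (-0.20 ± 0.04), the COX1 translation activator Taco1 (-0.34 ± 0.08) and the mRNA-binding protein Lrpprc (-0.21 ± 0.03). Of 17 mitochondrial aminoacyl-tRNA synthetases 5 fell (29.4%) and 0 rose, led by Mars2 (-0.45 ± 0.09), Rars2 (-0.21 ± 0.04) and Tars2 (-0.23 ± 0.05), and 3 fell without DMSO replicate 3. Without NU7441 replicate 1, and with upper-quartile scaling, 2 of these synthetases rose. Of 12 RNA processing genes 4 fell (33.3%), among them the tRNA 3′ endonuclease Elac2 (-0.24 ± 0.05) and Tbrg4 (-0.23 ± 0.05). Without NU7441 replicate 1 or DMSO replicate 2 that number was 2. Of 9 genes for transcription and replication of mitochondrial DNA 4 fell (44.4%), the RNA polymerase Polrmt (-0.21 ± 0.06), Tfam (-0.16 ± 0.04), Tfb2m (-0.12 ± 0.04) and Peo1, the helicase now called Twnk (-0.12 ± 0.05). Tfam alone among these kept its call in all 14 alternatives, and the number that fell was 1 without NU7441 replicate 1 or DMSO replicate 3 and 2 without NU7441 replicate 3 or DMSO replicate 2.

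Protein import had the largest share of genes that fell among these mitochondrial lists. Of 24 genes for import and membrane insertion 13 fell (54.2%, against 16.6% of all genes tested) and 1 rose (4.17%, against 14.1%). Their median was -0.15. Hspd1, the matrix chaperonin, had 338 ± 8.10 CPM in NU7441 and 440.4 ± 3.03 CPM in DMSO (SD, n = 3 each; log2 fold change -0.38 ± 0.03; edgeR, adjusted p = 1.7e-07). Tomm40, the channel of the outer membrane (-0.34 ± 0.04), its receptor Tomm70a (-0.23 ± 0.03) and Timm8a1 of the intermembrane space (-0.54 ± 0.06) also fell. Oxa1l, the insertase of the inner membrane that receives proteins from the mitochondrial ribosome, rose (0.31 ± 0.05; edgeR, adjusted p = 0.00025). These 5 calls held in all 14 alternatives. The nuclear genes of oxidative phosphorylation, taken by symbol, gave 24 lower (30.8%, against 16.6%) and 4 higher (5.13%, against 14.1%) of 78. Their median was -0.08. Without NU7441 replicate 2, 15 of this list were lower, where 13.7% of all genes tested were. This list also holds genes whose proteins join none made on the mitochondrial ribosome. They are the subunits of complex II and Cox4nb, which came in by its symbol alone. Sdhb, Sdhd and Cox4nb were among the 24 that were lower. Atp5g1, which encodes subunit c of ATP synthase (-0.36 ± 0.04), was the first by adjusted p among those that fell.

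Cytosolic ribosomal proteins moved the other way. Of 81 tested, 67 rose (82.7%) and 4 fell (4.94%), with a median log2 fold change of 0.17, against 3 that rose and 25 that fell among the mitochondrial ones. Of all genes tested 14.1% rose and 16.6% fell. The 4 that fell, Rpl34, Rpl26, Rps27l and Rpl7l1, averaged 6.45, 3.41, 75.2 and 91.3 CPM in DMSO, where the list median was 545 CPM. Rpl10 had 1415 CPM in NU7441 and 1190.0 CPM in DMSO, and Rpl3 had 1688 CPM in NU7441 and 1434 CPM in DMSO. Over the 6 fits that each left out 1 sample, between 62 and 68 cytosolic ribosomal genes rose and between 16 and 22 mitochondrial ones fell. The cytosolic genes that fell numbered 2 without NU7441 replicate 2 and without DMSO replicate 2. Their summed level was 56680, 56100 and 57040 CPM in NU7441, against 49690, 50170 and 50570 CPM in DMSO. The mitochondrial ribosomal genes made up 0.168% of all gene counts in NU7441 and 0.182% in DMSO. The lists were described by counts and medians, and no test was made between them.

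**Figure D4:**
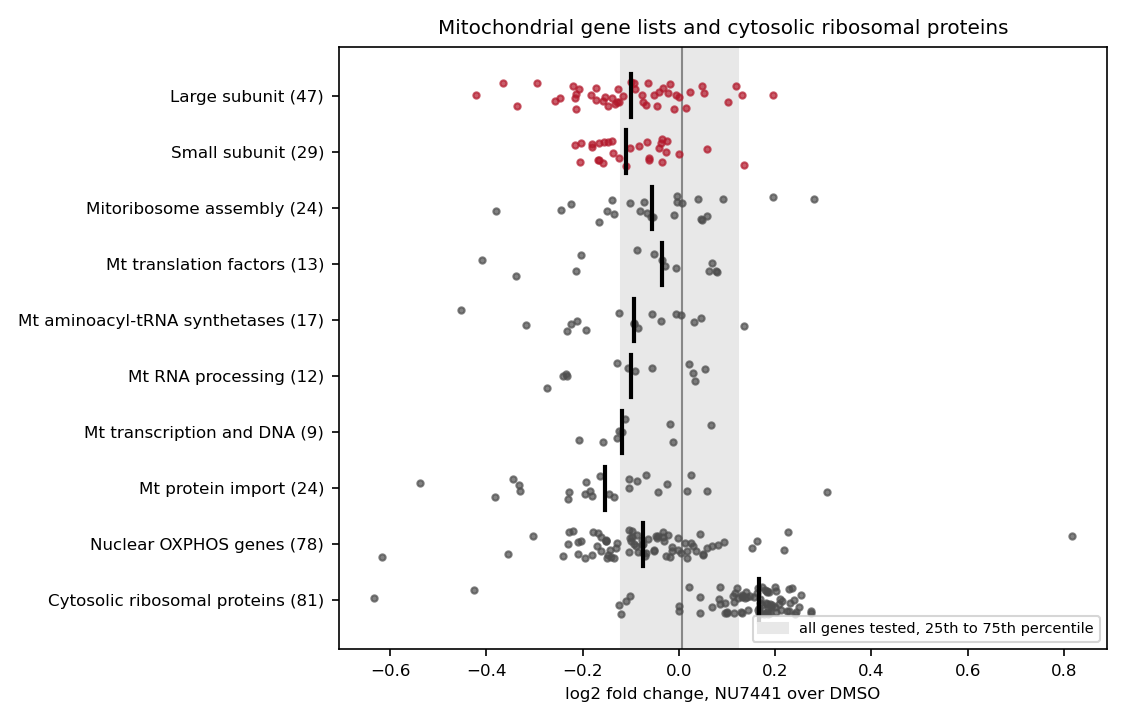
Log2 fold change of NU7441 over DMSO (x axis) for each tested gene of the mitochondrial lists and the cytosolic ribosomal proteins, with the number tested in brackets, a black bar at each median and a grey band from the 25th to the 75th percentile of all genes tested (-0.12 to 0.12). The medians of the large (-0.10) and small subunit (-0.11) lie left of 0 and that of the cytosolic ribosomal proteins (0.17) lies right of the band.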

How the data were processed

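RNA-seq of 3 NU7441 and 3 DMSO samples was read from 1 table. The authors deposited a gene count and an RPKM value per sample and a gene length for 23358 rows, per the file headers. Counts were tested. The deposited RPKM values, per kilobase of that length and per 1e6 of 1 total per sample, were used only to set levels of different genes side by side. The submitters' processing notes name bcl2fastq, TopHat2 2.0.6, HTSeq and the build mm10, without settings. All counts are even, so counts divided by 2 were an alternative. In total 5529 rows were at 0 in every sample, and 0 sample columns were left unmapped.

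The filter was filterByExpr (count of at least 10, total of at least 15) and the scaling TMM. In R 4.3.3, edgeR 4.0.16 compared the groups without covariates, with its quasi-likelihood test, two-sided, and p was adjusted over all 13784 genes tested. The SE is the log2 fold change divided by the square root of F. The alternatives were RLE, upper-quartile and library-size scaling, no filter, DESeq2 1.42.0, a replicate block, halved counts, a robust fit and leaving out each sample. Samples of 1 group differed by more than sampling noise. The fit was tested on simulated data.

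Any member could be named. Values by sample are given for the 10 members of lowest adjusted p in each direction whose groups did not overlap, the 3 most abundant per length and a few fixed members, and up to 4 genes per list are named. Neighbours, overlapping genes, Yy1, Gabpa, Ppargc1a and some markers were named after their values were seen. The members and lists were chosen with earlier results of these data known. Coordinates are the table's, on mm10. Promoter windows are RefSeq's, on GRCm38.p6. Of the list genes that the rule took, 1 is not reported here.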

Additional observations from a re-analysis of the deposited data

How the results depend on the processing

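The members called numbered between 17 and 24 when each sample was left out, and those called lower between 16 and 22. Those called higher numbered between 1 and 2, and those of the small subunit called between 4 and 10. In these fits 22.4% to 31.6% of members were called, against 24.8% to 27.9% of all genes. Those called lower were 21.1% to 28.9% of members, against 13.5% to 15.4% of all genes. With DESeq2, 1 member was called higher. With the replicate block 35 members and 5120 genes were called, against 28 and 4231 without it. Same-numbered samples of the groups correlated at 0.134, 0.088 and 0.0471 in their deviations from the group means, and each NU7441 sample correlated best with its own number, but the labels do not say what a number marks, so the samples were taken to share only a number. With upper-quartile scaling 56.5% of the calls over all genes were higher, against 45.9% with TMM and 37.7% with library size alone. The sign turned in at least 1 setting for 11 members, with values between -0.04 and 0.01 under the settings of the report. Among these, it turned for Mrpl10 with upper-quartile scaling (0.0067) and for Mrpl46 with upper-quartile scaling (0.0027), without NU7441 replicate 2 (0.0261), NU7441 replicate 3 (0.0235), DMSO replicate 1 (0.0102) and DMSO replicate 3 (0.0006), its values over the left-out samples running from -0.1212 to 0.0261, and the cause was not tested. None of the 11 was called in any setting. Of the 28 members called, 14 kept the call in all 14 settings. Scaling moved the median of all genes by at most 0.03 on the log2 scale. The number of samples and their depth limit how small a change could be called.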
